A study of Mus musculus with 22 samples.

Results

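Tro, Maged1, Maged2, Magel2 and Ndn encode members of the MAGE protein family, and Magel2, Ndn, Peg3 and Dlk1 are imprinted genes that neurons express. These 7 genes were chosen by name for their level in RNA immunoprecipitated with ribosomes against whole-tissue RNA in these same libraries. That difference is therefore given as a description, with no test. All 7 of the 7 are among the 12596 genes of the deposited table.

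The libraries came from 11 mice on a C57Bl/6 background that all carried Th-cre together with Slc6a2-eGFP/Rpl10a, a transgene that puts a green fluorescent tag on the ribosomal protein Rpl10a where Slc6a2, the noradrenaline transporter gene, is active. Tagged ribosomes were immunoprecipitated to obtain RNA of the locus coeruleus, the main noradrenergic nucleus of the brain stem, and each animal gave an immunoprecipitate (IP) and the RNA before it (input), which the labels call total hindbrain. In 5 animals hTyr was infused, the human form of tyrosinase, which makes pigment, and in 6 control animals the fluorescent protein EYFP. The groups were therefore hTyr IP and hTyr input (n = 5 each) and EYFP IP and EYFP input (n = 6 each). Neither group is free of Cre or of the tag, and the tag marks noradrenergic cells whether or not they took up the infused gene. Age, the delivery of the gene and the time after infusion are not given in the sources used here.

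MAGE proteins share a domain through which they bind RING-type ubiquitin ligases and steer them to their targets. In neurons MAGED1, also called NRAGE, and NDN, also called necdin, bind the p75 neurotrophin receptor, and MAGEL2 acts with a ligase on endosomes to regulate the recycling of membrane proteins. Imprinted genes are read mainly from the copy of 1 parent. Ndn, Magel2, Peg3 and Dlk1 are read from the paternal copy, while Tro, Maged1 and Maged2 lie on the X chromosome. These libraries do not say which parental copy was read.

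Reads per library in the table ran from 12654489 to 25100142, and every level below is log2 CPM, the log2 of read counts scaled to a common library size. The immunoprecipitation was checked on 10 noradrenergic markers, whose mean was higher in IP than in input of the same animal by 2.34 ± 0.49 on the log2 scale (SD, n = 11). Dbh, which makes noradrenaline, was higher by 4.02 in EYFP and 4.30 in hTyr animals, and Slc6a2 by 3.94 and 4.47. The mean level of Slc6a2 was 6.97 in EYFP IP and 6.59 in hTyr IP, and 3.03 and 2.12 in the inputs. RNA of other cells was present in the IP: 6 pan-neuronal markers were higher there by 0.24 ± 0.12, 6 astrocyte markers by 0.38 ± 0.16, and 6 oligodendrocyte markers lay at -0.10 ± 0.08 (SD, n = 11). Markers of other neuron types were higher too, the cholinergic by 0.62 ± 0.13, the serotonergic by 0.41 ± 0.16, the glutamatergic by 0.35 ± 0.11 and the GABAergic and glycinergic by 0.33 ± 0.12 (SD, n = 11). Single markers of these types, chosen after their values were seen, stood near Tro and Peg3, the most enriched of the 7 genes: Slc5a7, the choline transporter, at 1.27 in EYFP and 1.49 in hTyr, Tph2, which makes serotonin, at 1.23 and 1.28, and Slc17a6, a glutamate transporter, at 1.08 and 1.33. Other markers of the same types lay below input: the cholinergic Slc18a3 at -0.04 and -0.20, the serotonergic Fev at -0.55 and -0.26, and the glutamatergic Slc17a7 at -0.43 and -0.54. The part of other neurons in the values of the 7 genes was not tested. The oligodendrocyte markers summed to between 5559 and 7769 CPM in the IP libraries and between 5993 and 8485 CPM in input, and no marker was at 0 in all libraries. In such bulk RNA, fewer cells of a type and less RNA per cell cannot be told apart. Y-linked genes were expressed in 5 animals, 2 hTyr and 3 EYFP.

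The 7 genes ranged from strongly to barely enriched in IP. Tro was highest, at 2.64 times its input level over the 11 animals, then Peg3 at 2.17 times, Maged1 at 1.62, Ndn at 1.61, Dlk1 at 1.42, Maged2 at 1.16 and Magel2 at 1.07 times. As log2 differences between IP and input of the same animal, these were 1.40 ± 0.22 for Tro, 1.12 ± 0.20 for Peg3, 0.70 ± 0.18 for Maged1, 0.69 ± 0.17 for Ndn, 0.51 ± 0.39 for Dlk1, 0.21 ± 0.10 for Maged2 and 0.10 ± 0.32 for Magel2 (SD, n = 11). The median of the 7 was 0.66 in EYFP and 0.73 in hTyr animals, against -0.03 and -0.04 for all genes of the table. Since the genes were chosen for this difference, the distance from all genes is not a result about them.

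The places of Tro and Peg3 at the top of the order were repeated from animal to animal, those of the other genes less so. Tro was more enriched than Maged1, Maged2, Ndn and Magel2 in 11 of 11 animals, and more than Peg3 and than Dlk1 in 10 of 11. Peg3 exceeded Maged1 and Ndn in all 11. Maged1 and Ndn could not be ordered, as Maged1 was the higher of the pair in 5 of 11 animals. The neighbours Maged2 and Magel2 in this order differed in the same direction in 8 of 11. Dlk1 had no fixed place: Maged1 and Ndn each exceeded it in 8 of 11, Maged2 in 3 of 11 and Magel2 in 2 of 11. As the genes were chosen on this difference, the order is a description.

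**Figure D1:**
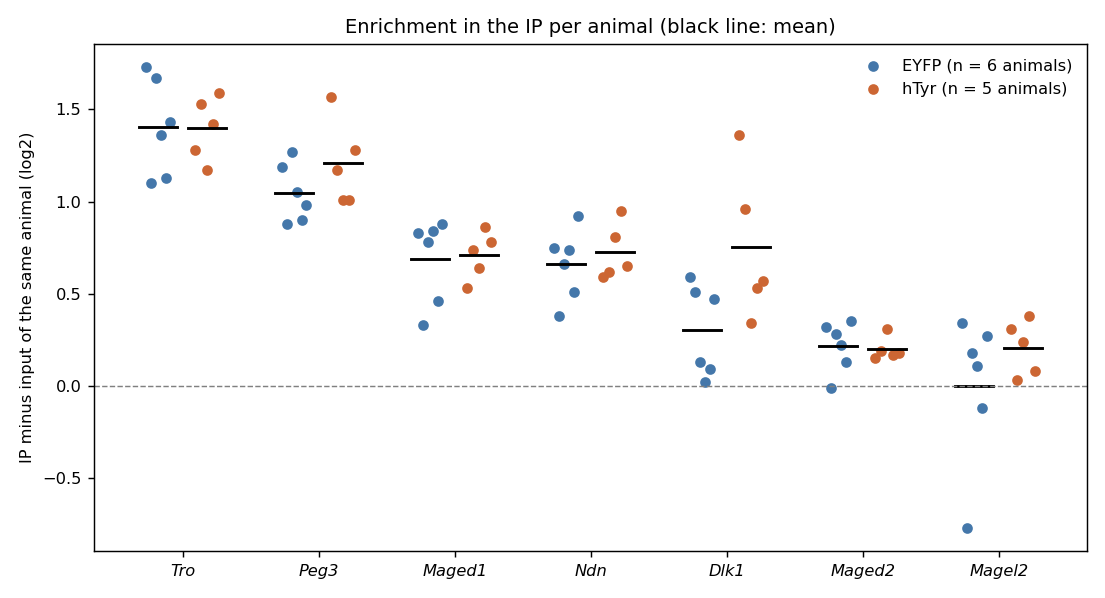
Difference between IP and input of the same animal on the log2 scale (y axis) for each of the 7 genes (x axis), with 1 point per animal, EYFP in blue and hTyr in orange, and black lines for group means. Tro and Peg3 lie above 0.8 in every animal, Maged2 lies between -0.01 and 0.35 and Magel2 between -0.77 and 0.38, and Dlk1 has the widest spread among hTyr animals.

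Every IP library exceeded every input library for 3 of the 7 genes, Tro, Maged1 and Peg3, where 12.1% of all genes did so. IP exceeded the input of the same animal in all 11 animals for 5 of the 7, Dlk1 and Ndn in addition, where 22.8% of all genes did so. Nothing is read from these counts, because the choice of genes used the contrast.

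Animals are named by the label of their IP library. Animal IP_505 of the EYFP group had the lowest IP level of the 11 for 5 of the 7 genes (Tro, Maged1, Maged2, Magel2 and Peg3) and the smallest difference between IP and input for 6 of the 7. Its noradrenergic markers were higher in IP by 2.14, within the range of 1.69 to 3.42 over the animals, and its 6 astrocyte markers by 0.10, near the lower end of their range of 0.04 to 0.51. The part of these values in the low levels was not tested. Without animal IP_505 the EYFP difference between IP and input was 1.46 for Tro, 1.08 for Peg3, 0.76 for Maged1, 0.72 for Ndn, 0.26 for Dlk1, 0.26 for Maged2 and 0.16 for Magel2.

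Among the X-linked MAGE genes, Tro encodes trophinin, first known as a cell adhesion protein, and lies on chromosome X at 150645304 to 150657583 on the minus strand (GRCm38, GENCODE M21). Its level in EYFP IP ran from 7.18 through a median of 7.61 to 7.95, and in EYFP input from 6.08 through 6.21 to 6.28. In the 5 hTyr IP libraries (animals IP_501, IP_502, IP_508, IP_509 and IP_510, in that order here and below) it was 7.45, 7.57, 7.30, 7.57 and 7.67, and in hTyr input 6.17, 6.04, 6.14, 6.16 and 6.08. The lowest IP library thus stood well above the highest input library in either treatment. Input libraries were close to each other, with an SD of 0.07 in EYFP and 0.06 in hTyr, and the spread in IP was wider, at 0.28 and 0.14. Ranked by enrichment among all genes, Tro stood at place 84 in EYFP and 203 in hTyr.

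Maged1, the p75-binding member, lies at 94535474 to 94542143 on the minus strand of the same chromosome. Its level ran from 8.73 through 9.14 to 9.27 in EYFP IP and from 8.21 through 8.42 to 8.57 in EYFP input. The hTyr IP libraries were at 8.99, 9.12, 8.82, 9.04 and 9.33, and the hTyr input libraries at 8.46, 8.37, 8.18, 8.18 and 8.55. IP and input did not overlap, and the lowest IP library, that of animal IP_505, lay at 8.73 against 8.57 in the highest input library. Maged2, which takes part in salt handling in the kidney and is widely expressed, lies 149 kb from Tro, at 150806370 to 150814345. It ran from 6.18 to 6.64 over EYFP IP and from 6.17 to 6.44 over EYFP input, and from 6.44 to 6.59 against 6.13 to 6.44 in hTyr. Its IP and input libraries overlapped, and in 1 of 11 animals, IP_505, IP was not above input.

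The MAGE genes of the imprinted region on chromosome 7 differed from each other. Ndn (62346569 to 62350262, plus strand) and Magel2 (62377010 to 62381640, plus strand) are single-exon genes 26.7 kb apart. Ndn ran from 8.90 through 9.21 to 9.45 in EYFP IP and from 8.30 through 8.52 to 8.75 in EYFP input. In hTyr it was at 9.64, 9.22, 9.02, 9.14 and 9.18 in IP and at 9.05, 8.60, 8.21, 8.19 and 8.52 in input. Animal IP_501 had the highest Ndn in both of its libraries, and its input overlapped the hTyr IP range, while IP exceeded the input of the same animal in all 11. Magel2 lay far lower, at 2.25 to 3.35 in EYFP IP and 2.59 to 3.02 in EYFP input, and at 2.57 to 3.02 against 2.33 to 2.84 in hTyr. These levels rest on 79 to 168 reads per IP library and 96 to 166 per input library. Its IP range enclosed or overlapped the input range in both treatments.

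Scaled per kilobase of exon, Ndn and Maged1 were the most abundant of the set. In EYFP IP, Ndn was at 159 ± 21.7 CPM per kb and Maged1 at 127 ± 17.3 (SD, n = 6), and 2.53% and 3.38% of genes were higher. Maged2 at 27.8 ± 2.99, Tro at 26.9 ± 5.03 and Peg3 at 26.5 ± 4.95 CPM per kb followed and differed by less than their spread, and Dlk1 stood at 21.1 ± 3.92. Magel2 stood at 1.54 ± 0.422 CPM per kb, and 89.9% of genes were higher. In EYFP input the order changed: Maged2 at 23.9 ± 1.70 CPM per kb and Dlk1 at 17.0 ± 2.93 stood above Peg3 at 12.8 ± 2.19 and Tro at 10 ± 0.517. In hTyr IP the levels were 165 ± 29.1 for Ndn, 124 ± 16.3 for Maged1, 29.7 ± 10.7 for Dlk1, 28.0 ± 1.25 for Maged2, 26.5 ± 2.93 for Peg3, 25.1 ± 2.38 for Tro and 1.5 ± 0.193 for Magel2 (SD, n = 5). In hTyr input they were 101 ± 26.1, 75.4 ± 8.73, 16.9 ± 1.19, 24.4 ± 1.91, 11.6 ± 1.88, 9.51 ± 0.362 and 1.30 ± 0.180 CPM per kb in the same order of genes.

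**Figure D2:**
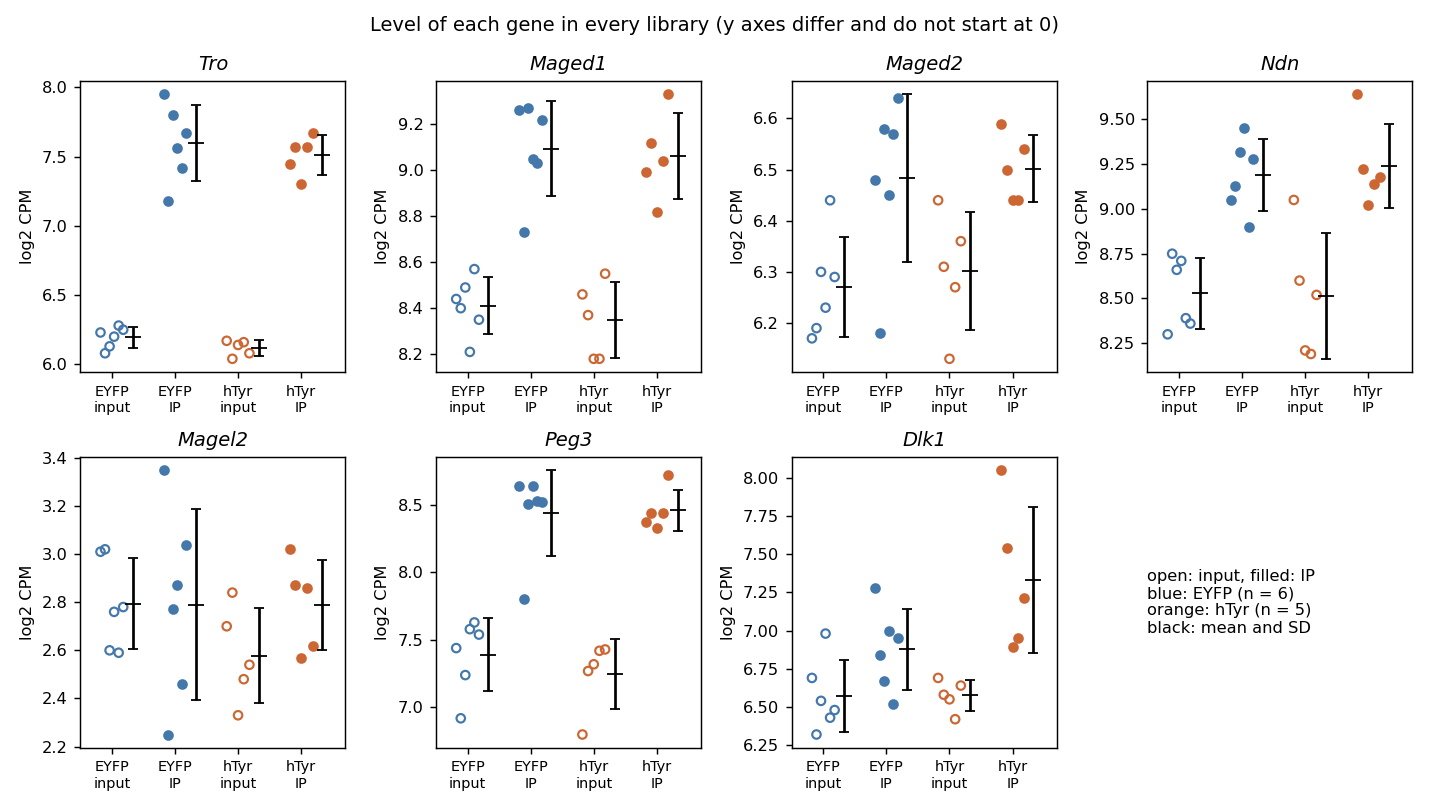
Level of each gene as log2 CPM (y axis, a range of its own for each panel) in the 4 groups (x axis), with 1 point per library, open for input and filled for IP, blue for EYFP (n = 6) and orange for hTyr (n = 5), and black bars for the mean and SD. Filled points lie above all open points for Tro, Maged1 and Peg3, and they mix with open points for Maged2 and Magel2.

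The remaining MAGE genes were listed by family and not by level, although with earlier results of these data known. Limma on all genes called 28.5% of the table higher and 28.1% lower in IP in EYFP animals, and 27.4% and 27.0% in hTyr animals (Benjamini-Hochberg adjusted p under 0.05). These fits had no term for the animal, except where the replicate block is named. Of 5 other MAGE genes in the table, 2 were higher and 1 was lower in each treatment. Magee1, which binds dystrobrevin, rose by 1.13 in EYFP and 1.18 in hTyr on the log2 scale (limma adjusted p = 1.66e-06 and 4.68e-08), and Magee2 rose by 0.92 and 0.91 (adjusted p = 2.37e-05 and 8.58e-05). Magef1 fell by 0.56 and by 0.60 (limma adjusted p = 0.0033 and 0.00393). Mageh1 at 0.18 and 0.01, and Ndnl2, also called Nsmce3 and part of the SMC5/6 complex, at 0.20 and 0.02 did not pass the threshold. With the animal as a replicate block, 4 of the 5 were higher in EYFP, as Mageh1 and Ndnl2 then passed (limma adjusted p = 0.0338 and 0.0305).

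Genes whose products work with MAGE proteins were higher in IP in 13 of 19 cases and lower in 0, in EYFP and in hTyr alike (limma). The shares of all genes were 28.5% higher and 28.1% lower in EYFP, and 27.4% and 27.0% in hTyr. Their median was 0.49 in EYFP and 0.50 in hTyr, against -0.03 and -0.04 over all genes. Vps35, the core of the retromer that retrieves proteins from endosomes, rose by 1.69 and 2.10, and Washc4 (listed as A230046K03Rik), a subunit of the WASH complex that MAGEL2 regulates, rose by 1.34 and 1.64. Smc6, of the complex that NSMCE3 joins, rose by 1.25 and 1.63. Pja1, a RING ligase that binds MAGED1, rose by 0.96 and 1.00, and Usp7, a deubiquitinase of the MAGEL2 complex, by 0.49 and 0.50. Trim27, the ligase partner of MAGEL2, stood at 0.01 and 0.16, and the WASH subunits Washc1 (Wash1) at 0.04 and 0.09 and Washc2 (Fam21) at 0.10 and 0.13 did not pass. So some subunits of the WASH complex were called and others were not, and the difference between subunits was not tested.

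Of 13 genes around p75 and the neurotrophins, 2 were higher and 4 lower in EYFP, and 1 was higher and 3 lower in hTyr, with medians of -0.08 and -0.06. The shares called lower were near those of all genes (28.1% and 27.0%), of which 28.5% and 27.4% were called higher. Ngfr, which encodes p75 itself, stood at -0.09 and -0.50 and did not pass in either treatment (limma adjusted p = 0.602 and 0.0745). With the animal as a replicate block the hTyr counts were 2 higher and 5 lower, as Ngfr (adjusted p = 0.0249), the Nogo receptor gene Rtn4r (-0.34, adjusted p = 0.011) and Bex1 (0.24, adjusted p = 0.0359) then passed in limma. With median centring 5 were also lower in hTyr, Ngfr at -0.57 and Rtn4r at -0.41 among them (limma adjusted p = 0.0425 and 0.0201). Bdnf, the neurotrophin, rose by 0.35 and 0.79, and Sorcs2, a co-receptor of p75, rose by 0.45 in EYFP and stood at 0.15 in hTyr (0.32 and passing without animal IP_501). Traf6, a p75 adaptor, fell by 0.57 and by 0.48. In hTyr the call of Traf6 ended without animal IP_508, IP_509 or IP_510, at values between -0.41 and -0.33. Lingo1 fell by 0.38 and by 0.48, and Ntrk3 fell by 0.38 and by 0.31.

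X-linked genes of the Bex, Tceal, Gprasp and Armcx families, many of them expressed in neurons, were higher in IP for 8 of 19 in EYFP and 9 of 19 in hTyr, and lower for 0. Of all genes, 28.5% were higher and 28.1% lower in EYFP, and 27.4% and 27.0% in hTyr. With the replicate block 1 was lower in hTyr, and with median centring 1 was lower in EYFP and 1 in hTyr. Gprasp1, whose product sorts receptors after endocytosis, rose by 1.51 and 1.61, Gprasp2 by 1.17 and 1.26, and Bhlhb9, also called Gprasp3, by 0.83 and 1.01. The 9 other Bex and Tceal genes stood between -0.23 and 0.27 and did not pass, and Bex2 rose by 0.40 and 0.37.

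Neighbours of the imprinted members were called in both directions, and the members' own difference is the one they were chosen for. Peg3, a zinc finger protein that takes part in maternal care and in p53-linked cell death, lies on chromosome 7 at 6703892 to 6730431 on the minus strand. Its level in EYFP IP ran from 7.80 through 8.52 to 8.64 and in EYFP input from 6.92 through 7.49 to 7.63. In hTyr IP it was 8.37, 8.44, 8.33, 8.44 and 8.72, and in hTyr input 6.80, 7.27, 7.32, 7.42 and 7.43. Every IP library stood above every input library, and the values of animal IP_505 in IP and of animal IP_501 in input lay apart below the rest of their groups. Usp29, which encodes a deubiquitinase and starts 147 bases from Peg3 on the other strand, rose by 0.82 in EYFP and 0.87 in hTyr (limma adjusted p = 1.22e-05 and 3.86e-07). Zim1, read from the maternal copy and 7.4 kb away, fell by 1.03 in EYFP (limma adjusted p = 0.00308) and stood at -0.55 in hTyr (adjusted p = 0.128; -0.85 and adjusted p = 0.0264 without animal IP_501). Of 5 partners of PEG3 in cell death, 1 was called in hTyr, Bax, which fell by 0.26 (limma adjusted p = 0.0131), and 0 in EYFP (0 also at an unadjusted p under 0.05 and with voom). Among all genes 28.1% were called lower in EYFP and 27.0% in hTyr. The Bax call ended without animal IP_501 (-0.21) or IP_502 (-0.25). Without animal IP_501 the adaptor gene Traf2 passed as higher in hTyr (0.41, limma adjusted p = 0.0188), and with median centring the ubiquitin ligase gene Siah1a passed as lower, at -0.22 in each treatment (limma adjusted p = 0.0371 in EYFP and 0.0476 in hTyr).

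The stretch between the annotated starts of Peg3 and Usp29 is shown because both genes leave it, in opposite directions, and both were higher in IP. It is written in the direction of Peg3 transcription, from RefSeq (GRCm38.p6), at chr7:6730432-6730577 on the minus strand, with each CpG, the site of DNA methylation, in capitals. The upstream windows of Dlk1 (chr12:109452573-109452822, plus strand) and Magel2 (chr7:62376729-62376978, plus strand) follow for comparison, as the most variable and the least enriched imprinted member.
Peg3 and Usp29: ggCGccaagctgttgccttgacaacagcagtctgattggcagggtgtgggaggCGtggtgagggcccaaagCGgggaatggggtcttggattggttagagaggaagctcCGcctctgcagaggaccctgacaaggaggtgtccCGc
Dlk1: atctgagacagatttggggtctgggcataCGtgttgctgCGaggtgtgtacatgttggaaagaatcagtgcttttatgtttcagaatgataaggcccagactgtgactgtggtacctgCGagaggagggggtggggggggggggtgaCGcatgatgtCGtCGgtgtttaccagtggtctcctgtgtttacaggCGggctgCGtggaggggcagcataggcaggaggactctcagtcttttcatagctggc
Magel2: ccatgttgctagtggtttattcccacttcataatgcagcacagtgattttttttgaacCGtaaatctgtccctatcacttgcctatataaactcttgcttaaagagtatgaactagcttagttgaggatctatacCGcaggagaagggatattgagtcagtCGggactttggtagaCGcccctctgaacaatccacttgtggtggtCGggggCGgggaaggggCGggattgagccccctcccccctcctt
The 146 bases between Peg3 and Usp29 held 5 CpG and were 61.6% G and C, and this shorter stretch was not compared with other promoters. The 250 bases before Dlk1 held 8 CpG, and those before Magel2 held 7. Windows with at least 8 CpG in the 250 bases before a start made up 43.0% of the 32851 RefSeq promoters, and those with at least 7 made up 46.3%. CG reads the same on either strand. RefSeq promoters matched 6 of the 7 genes, and methylation was not measured.

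In the Ndn and Magel2 region, Ube3a, a ubiquitin ligase that neurons read from the maternal copy, rose by 0.83 in EYFP and 1.07 in hTyr (limma adjusted p = 0.000165 and 5.61e-06). Snrpn, a paternally read splicing gene, fell by 0.68 in EYFP (limma adjusted p = 0.00203) and stood at -0.19 in hTyr (adjusted p = 0.351), and the interaction of 0.49 did not pass. The noncoding Snhg14 at 0.11 and 0.04 and Atp10a at -0.34 and -0.37 did not pass. Atp10a passed in EYFP without animal IP_511 (-0.45) and in hTyr without animal IP_510 (-0.56). The paternally read genes of this region thus included Ndn, above input in every animal, Snrpn, below it in EYFP, and Magel2, near it.

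In the Dlk1 region on chromosome 12, Dlk1, chosen for this difference, was the only gene of the 6 in the table above 0 in both treatments. The maternally read noncoding RNAs Meg3, 77.7 kb from Dlk1, and Rian fell: Meg3 by 0.93 in EYFP and by 1.35 in hTyr (limma adjusted p = 0.000489 and 4.27e-05), and Rian by 0.77 and by 0.94 (adjusted p = 4.81e-05 and 1.76e-05). Mirg, a further noncoding RNA, stood at -0.12 and -0.26 and did not pass. The IP takes RNA held by tagged ribosomes. The part of this in the values of noncoding RNAs, here and for Snhg14, was not tested. Among protein-coding neighbours, Rtl1, a retrotransposon-derived gene, fell by 0.74 and by 0.76 (limma adjusted p = 0.0209 and 0.0476), and Begain, a synaptic gene, fell by 0.40 and by 0.50 (adjusted p = 0.0028 and 0.000143). The Rtl1 call ended without animal IP_507 (-0.69) or IP_512 (-0.59) in EYFP, and without animal IP_501 (-0.81), IP_509 (-0.54) or IP_510 (-0.54) in hTyr. Over all 11 neighbours of the 3 regions, 2 were higher and 6 lower in EYFP, and 2 were higher and 4 lower in hTyr, with medians of -0.40 and -0.37. The shares of all genes were 28.5% higher and 28.1% lower in EYFP, and 27.4% and 27.0% in hTyr. With the filter on low values, 3 of the neighbours were lower in EYFP. Rtl1 and Snrpn, like Zim1, were low in level, at a mean log2 CPM of 1.73 and 2.40 in EYFP IP and 2.47 and 3.08 in EYFP input.

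**Figure D3:**
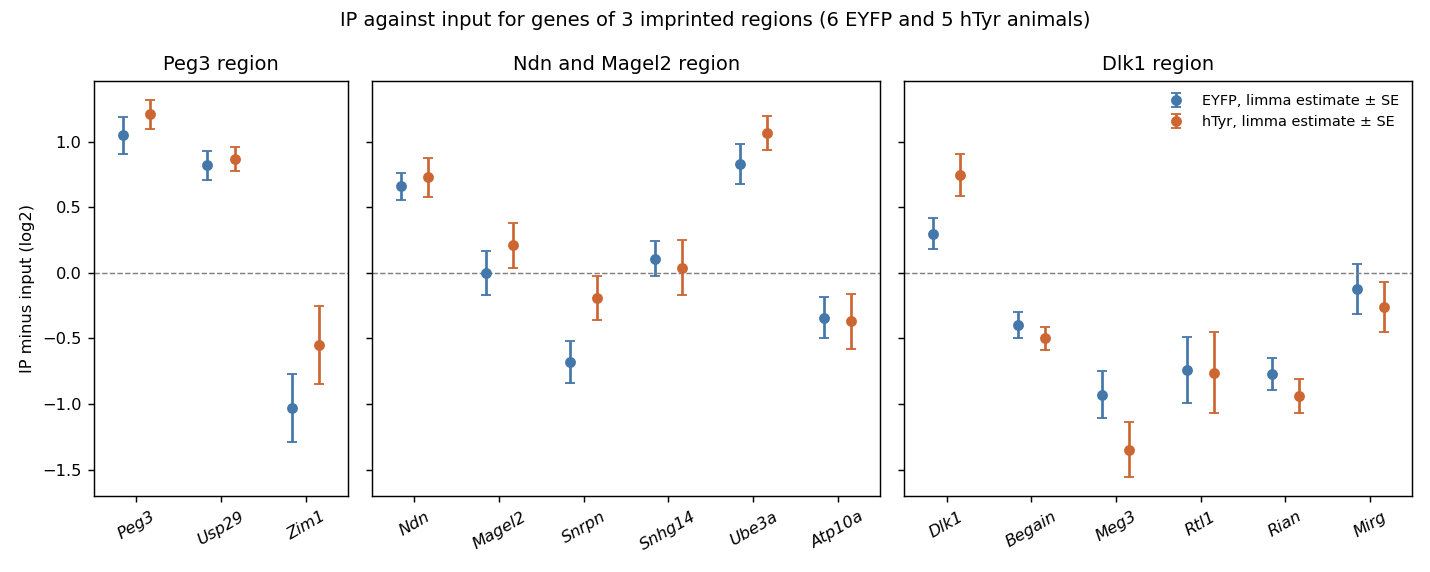
Limma estimate of IP minus input on the log2 scale (y axis, bars are the SE) for the imprinted members and their neighbours in 3 regions (x axis, genes), EYFP in blue and hTyr in orange. Peg3 and Usp29 lie above 0 and Zim1 below it, Ndn and Ube3a lie near 0.7 to 1.1 with Magel2 near 0, and Dlk1 lies above 0 while Meg3, Rtl1, Rian and Begain lie below it.

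Imprinted genes elsewhere were called in both directions, as were all genes of the table (28.5% higher and 28.1% lower in EYFP, 27.4% and 27.0% in hTyr). Of 20 other genes listed as paternally read, 9 were higher and 5 lower in EYFP, and 11 were higher and 4 lower in hTyr. Their medians were 0.18 and 0.36. Of 19 genes listed as read from the maternal copy in at least some tissues, 5 were higher and 7 lower in EYFP. In hTyr 6 were higher and 5 lower. Medians were 0.09 and 0.07, and the shares were not far from those of all genes. Both lists include neighbours from the 3 regions. The maternal list includes Begain, of which a paternally read form is reported in the mouse. The counts and medians are those of the lists as written. Asb4, part of a ubiquitin ligase, rose by 1.29 and 1.83. It was on the paternal list, although the mouse gene is reported as read from the maternal copy. Impact, a regulator of translation, rose by 0.78 and 1.09, and Zfp37, a zinc finger gene, by 0.60 and 1.06. Igf2, a growth factor, fell by 0.70 and by 0.83, and Peg13 fell by 0.66 and by 0.68. On the maternal list Calcr, the calcitonin receptor, rose by 2.42 and 2.49 and Ppp1r9a, neurabin, by 1.13 and 1.25. Gatm, which makes the precursor of creatine, fell by 0.48 and by 0.54.

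Dlk1 encodes a membrane protein related to the Notch ligands but without their activating domain, and it marks precursor and neuroendocrine cells. It lies on chromosome 12 at 109452823 to 109463336 on the plus strand. Its level in EYFP IP ran from 6.52 through 6.89 to 7.28 and in EYFP input from 6.32 through 6.51 to 6.98. In hTyr IP it was 8.05, 7.54, 6.89, 6.95 and 7.21, and in hTyr input 6.69, 6.58, 6.55, 6.42 and 6.64. The input levels of the treatments overlapped almost entirely, and in IP animals IP_501 and IP_502 of the hTyr group stood above all EYFP libraries, of which that of animal IP_504 was the highest. Differences between IP and input of the same animal ran from 0.02 to 1.36.

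In the Notch pathway, genes called lower in IP outnumbered those called higher. Of 30, 15 were lower and 4 higher in EYFP, and 13 were lower and 2 higher in hTyr, with medians of -0.24 and -0.32. Among all genes 28.1% were lower and 28.5% higher in EYFP, and 27.0% and 27.4% in hTyr. Notch1, a receptor, fell by 0.77 and by 0.74, Notch3, which mural cells of vessels express, fell by 0.76 and by 0.68, Nrarp, a feedback inhibitor that Notch induces, fell by 0.86 and by 0.98, and Rfng, which adds sugars to Notch, fell by 0.62 and by 0.84. Dlk2, the nearest relative of Dlk1, stood at -0.24 in EYFP (limma adjusted p = 0.0963) and fell by 0.49 in hTyr (adjusted p = 0.0105). Dner, a neuronal transmembrane protein with Notch-ligand-like repeats, rose by 0.37 and 0.46, and Adam10, the protease that cuts Notch, rose by 0.39 and 0.59. Psen2, of the protease that frees the Notch intracellular part, rose by 0.25 in EYFP (without animal IP_512 it was 0.22 and missed the threshold) and stood at 0.11 in hTyr. Astrocyte markers stood above input in the same IP libraries and oligodendrocyte markers below it, as given above, and their part in these counts was not tested.

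The difference between IP and input of Dlk1 followed that of the noradrenergic markers from animal to animal. Since the genes were chosen on this difference, the correlations are descriptions, with no test. Over the 11 animals Pearson's r was 0.953 and Spearman's rho 0.918. Without the 2 animals farthest from the median of the marker difference, IP_501 and IP_511, r was 0.882, and within the 6 EYFP animals alone it was 0.865. Animals IP_501 and IP_502, with the largest marker differences of 3.42 and 2.78, had the largest Dlk1 differences of 1.36 and 0.96, and animals IP_507 and IP_511, with the smallest of 1.76 and 1.69, had Dlk1 differences of 0.02 and 0.09. The other 3 hTyr animals, IP_508, IP_509 and IP_510, had marker differences of 2.10, 2.38 and 2.25 and Dlk1 differences of 0.34, 0.53 and 0.57. No r is given for the 5 hTyr animals alone. Both quantities come from the same pair of libraries of an animal.

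For the 5 MAGE genes r was smaller. It was 0.256 for Tro, 0.354 for Magel2, 0.045 for Ndn, 0.0434 for Maged2 and 0.0319 for Maged1, and rho ran from 0.0727 to 0.455. In the 6 EYFP animals alone r was 0.632 for Tro and between 0.334 and 0.506 for the other 4. For Peg3, r was 0.733 and rho 0.482, and r without animals IP_501 and IP_511 was 0.253. Without animal IP_501 alone r of Peg3 was 0.42, and without animal IP_511 alone it was 0.69. Whether r differed between the genes was not tested.

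**Figure D4:**
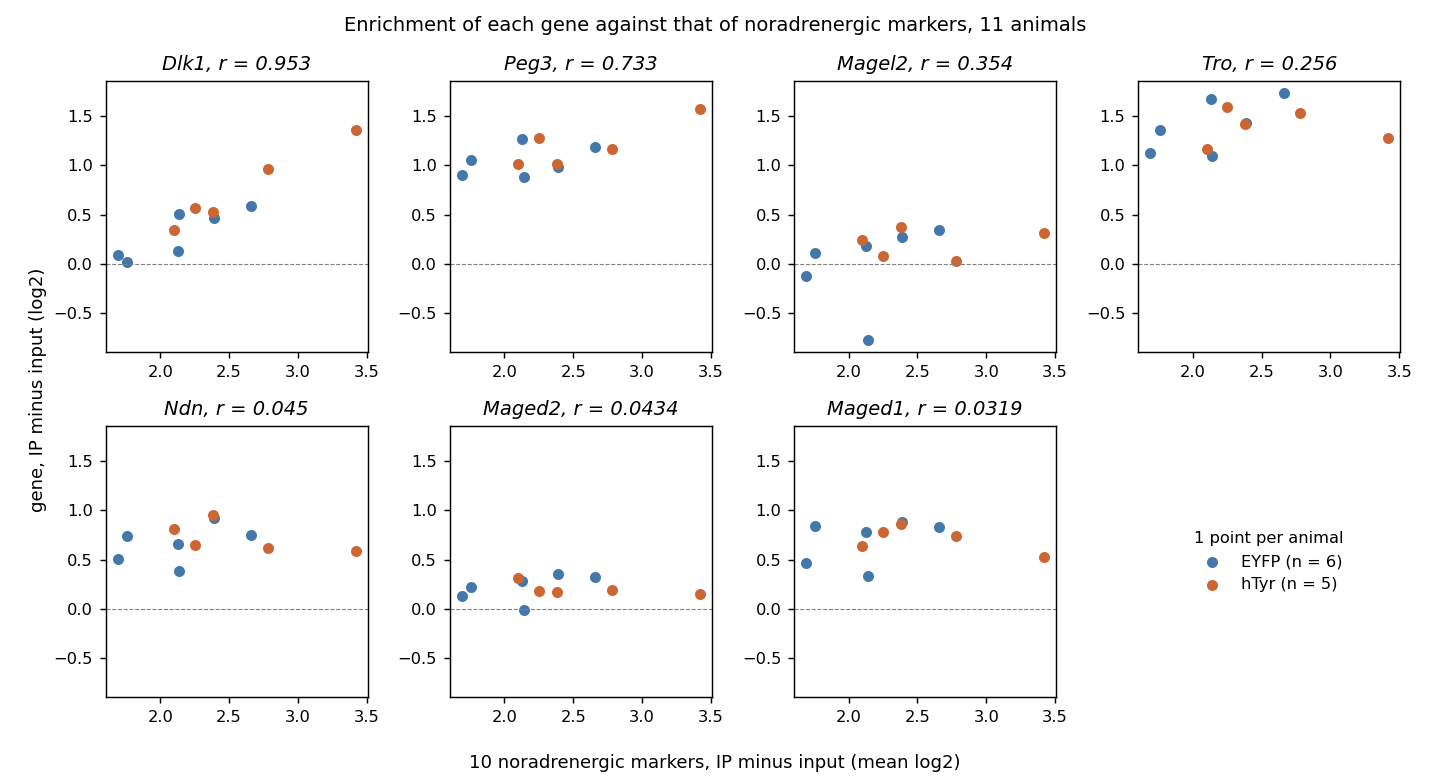
Difference between IP and input of the same animal for each of the 7 genes (y axis, log2) against the mean difference of 10 noradrenergic markers (x axis, log2), with 1 point per animal, EYFP in blue (n = 6) and hTyr in orange (n = 5), and Pearson's r over the 11 animals. Points of Dlk1 rise along the x axis in both treatments, while those of Maged1, Maged2 and Ndn show no slope (r of 0.0319, 0.0434 and 0.045).

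The comparison that the study names is hTyr against EYFP in IP, and the 7 genes were not chosen on it, so it was tested. Limma called 0 of the 7 in IP, where 0.0556% of all genes (7) were called. It called 0 of the 7 in input and 0 of the 7 for the interaction, which asks whether the difference between IP and input differs between treatments, where 0.00794% of all genes (1) were called in input and 0.00794% (1) for the interaction. At an unadjusted p under 0.05 there was 1 of the 7 in IP, 0 in input and 0 for the interaction. Among all 12596 genes there were 780, 382 and 417. Voom on the recovered reads also called 0 of the 7 in each. For no gene of the 7 were the hTyr and EYFP libraries free of overlap, in IP (0.651% of all genes) or in input (0.175%).

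Dlk1 was the gene with the unadjusted p under 0.05. Its IP level was higher in hTyr by 0.45 on the log2 scale (SE 0.18, 95% interval 0.07 to 0.83), which is 1.37-fold (1.05 to 1.78), with a limma p of 0.0227 and an adjusted p of 0.776. In input the difference was 0.00 (SE 0.10, interval -0.21 to 0.21), and the interaction was 0.45 (SE 0.22, interval -0.01 to 0.91, adjusted p = 0.996). The mean of the noradrenergic markers was 6.47 ± 0.58 in hTyr IP (SD, n = 5) and 6.09 ± 0.37 in EYFP IP (SD, n = 6), and 0 of the 10 markers passed (lowest limma adjusted p = 0.479). At an unadjusted limma p under 0.05 there were 3 of the 10 in IP, and 780 of all 12596 genes, and voom also called 0 of the 10 there. In input limma called 1 of the 10, Slc6a2, at -0.91 in hTyr against EYFP (adjusted p = 0.0339). It was the only gene of the table called in input, and the call did not hold under every setting. With the mean of the markers as a covariate the Dlk1 difference in IP was 0.18, and without animal IP_501 it was 0.27.

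For the other 6 genes the difference in IP lay between -0.08 for Tro and 0.05 for Ndn. The 95% intervals were -0.33 to 0.17 for Tro, -0.27 to 0.20 for Maged1, -0.16 to 0.20 for Maged2, -0.20 to 0.30 for Ndn, -0.26 to 0.30 for Peg3 and -0.41 to 0.40 for Magel2. As folds, the intervals of the 5 genes other than Magel2 and Dlk1 lay between 0.793 and 1.23. In input the largest differences were -0.21 for Magel2 (interval -0.49 to 0.06) and -0.14 for Peg3 (-0.42 to 0.14). In IP the interval of Magel2, the gene with the fewest reads, was the widest of the 7.

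**Figure D5:**
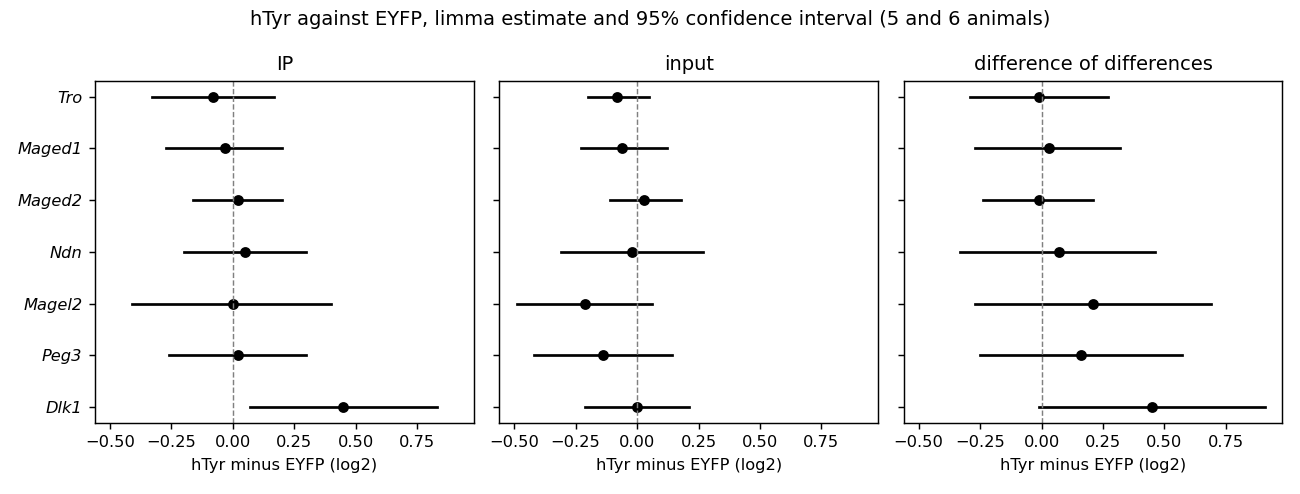
hTyr minus EYFP on the log2 scale (x axis) for each of the 7 genes (y axis) in IP, in input, and as the difference of the IP and input differences, with dots for limma estimates and lines for 95% confidence intervals (5 hTyr and 6 EYFP animals). All lines cross 0 except that of Dlk1 in IP, which runs from 0.07 to 0.83 and whose adjusted p is 0.776.

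No related gene was called for hTyr against EYFP either. Of the 130 genes on the lists of relatives, partners and neighbours, limma and voom called 0 in IP, in input and for the interaction. An unadjusted limma p under 0.05 was found for 6, 3 and 5 of them, and for 780, 382 and 417 of all 12596 genes. Meg3 stood at -0.65 in IP (SE 0.23) and Snrpn at 0.53 (SE 0.20), and neither passed. With 5 and 6 animals, missing the threshold does not show that a gene was unchanged.

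Across the 22 libraries Tro varied most like Maged1 and Peg3 among the members, at r = 0.95 with each. These r include the step between IP and input. With that step removed, as differences over the 11 animals, r was between 0.74 and 0.83 for the 6 pairs among Maged1, Maged2, Magel2 and Ndn. Tro was less like them, at 0.75 with Maged1, 0.55 with Maged2, 0.52 with Magel2 and 0.36 with Ndn. Animal IP_505, low for most of them, is among these 11. Dlk1 varied with Peg3 at r = 0.64 and with the 5 MAGE genes at -0.18 to 0.16. These are descriptions over animals that share libraries between genes.

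Among all other genes, those most like each member over the 22 libraries were Hsd17b4, Kifap3 and Gprasp2 for Tro (r from 0.986 to 0.988), and Pkm, Pfkm and Pja1 for Maged1 (0.986 to 0.988). Kifap3 serves kinesin transport, Pkm and Pfkm are glycolytic enzymes, and Pja1 is the MAGED1-binding ligase named above. For Peg3 they were Dzank1, Ipo7 and Hecw2 (0.985 to 0.988), for Ndn Ufsp1, Pld3 and Hagh (0.905 to 0.906), and for Maged2 they included Baiap3 and Anapc2 (0.897 and 0.888). For Dlk1 they included As3mt and Panx1 (0.884 and 0.879). For Magel2 they were Ttll12, Crhbp and Gfra1, at a lower r of 0.659 to 0.697.

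Over the 11 animals, by the difference between IP and input, the nearest genes were Madd, Nefl and Atp2b3 for Tro (r from 0.92 to 0.936), Elp3, Tars and Eif3d for Maged1 (0.957 to 0.973), and Agt, Anapc2 and Faf1 for Maged2 (0.921 to 0.944). For Ndn they were Vmp1, Ctsa and Smpd1 (0.945 to 0.959), the last 2 of them lysosomal enzymes, and for Magel2 they included Atl1 and Rragb (0.947 and 0.936). For Peg3 they were Zmym2, Aak1 and Pgap1 (0.958 to 0.968). For Dlk1 they were Gng4, Celf6 and Uhmk1 (0.95 to 0.96), and Uhmk1 was itself lower in IP, by a mean of -1.15. A gene can therefore vary with Dlk1 from animal to animal without being enriched with it.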

How the data were processed

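Each of 11 animals gave an IP and an input library. The authors deposited filtered, normalized log2 values, per the name of the table. Per the submitters' processing notes, STAR, featureCounts and mm10 were used. Versions, filter and normalization are not given in the sources used here. The deposited log2 values behaved as CPM with a prior that averaged 2 reads: 100% came out as whole reads within 0.05, which gave the depth, and depth speaks of counting error only.

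All 12596 genes were tested with limma 3.58.1 in R 4.3.3 (lmFit, eBayes with a trend), with Benjamini-Hochberg adjustment and a threshold of 0.05, and the code was tested on simulated data. IP and input libraries with the same number in their titles deviated together (mean r 0.448, range 0.279 to 0.626 over 11, against -0.043 for different animals) and were taken as pairs.

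Correlations with the noradrenergic markers were planned with permutation tests and are given without them, since the members were chosen on the same contrast. The members and the lists of related genes were chosen with earlier results of these data known. Named are the members, the other MAGE genes and neighbours, up to 3 called genes with the largest change in each direction per list, and the 3 genes most like each member, of which some are not reported here. Usp7, Trim27, Washc1, Washc2, Ngfr, Rtn4r, Bex1, Bex2, Traf2, Siah1a, Slc5a7, Slc18a3, Tph2, Fev, Slc17a6, Slc17a7 and Dlk2 were named after their values were seen. Positions and exon lengths are from GENCODE M21 (GRCm38, a length for 98.1% of genes), and older symbols were matched through RefSeq. No member shares exon bases with another annotated gene. Alternatives were other scaling, filter, pseudocount, spread and covariates, voom on recovered reads, the replicate block and leaving out each animal, which for the correlations was added after the data were seen. Figures were drawn with Python 3.11.15.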

Additional observations from a re-analysis of the deposited data

Results flagged for a closer look

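In 28 groups of libraries (7 genes in 4 groups), 2 held a library apart from the rest, and chance flags about 1 in 20, or 1.4 here. Peg3 in EYFP IP was at 7.80 log2 CPM in animal IP_505, where the next library was at 8.51, a gap of 0.853 of the group's range (limit 0.625 for 6 libraries). Peg3 in hTyr input was at 6.80 in animal IP_501, where the next was at 7.27, a gap of 0.746 of the range (limit 0.71 for 5). Without animal IP_505 the hTyr difference of Peg3 in IP was -0.11.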

How the results depend on the processing

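The comparisons of IP and input kept 7123 called genes in EYFP and 6853 in hTyr within 1.5 times under every setting run. The number of genes called for hTyr against EYFP was not stable: in IP 7 became 4 with the noradrenergic covariate and 14 with a shared spread, and 3 to 11 without single animals, and in input 1 became 0 with a shared spread (253 at an unadjusted p under 0.05) and 0 to 2 without single animals. For the interaction 1 gene became 5 with the replicate block and 0 to 5 without single animals. The block changed no call of the 7 genes, with Dlk1 at 0.45 (limma adjusted p = 0.699), and the calls it changed among related genes are given beside them. No member was called for treatment under any setting, where 41 of 375 values changed sign, all of 0.11 or less in size.

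With the noradrenergic covariate Maged2 in IP was -0.02 and Ndn -0.05. With median centring Magel2 in IP was 0.00, Ndn in input 0.01, and IP minus input -0.05 for Magel2 in EYFP, and -0.06 for Mageh1, -0.05 for Ndnl2 and -0.02 for Snhg14 in hTyr. With voom Magel2 in IP was 0.01 and its EYFP difference from input -0.01. With the Y-linked covariate Ndn in input was 0.00. Without single animals, hTyr minus EYFP in IP was -0.11 to 0.03 for Maged1, -0.04 to 0.05 for Maged2, -0.11 to 0.11 for Magel2, -0.05 to 0.10 for Ndn and -0.11 to 0.06 for Peg3, in input -0.05 to 0.08 for Dlk1, 0.00 to 0.08 for Maged2 and -0.15 to 0.06 for Ndn, and for the interaction -0.05 to 0.07 for Maged1, -0.06 to 0.01 for Maged2 and -0.07 to 0.06 for Tro. IP minus input was then -0.07 to 0.16 for Magel2 in EYFP, and -0.08 to 0.08 for Mageh1, -0.03 to 0.07 for Ndnl2 and -0.08 to 0.21 for Snhg14 in hTyr. The cause was not tested.

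The r with the noradrenergic markers ran from 0.90 to 0.97 for Dlk1 without single animals. It ran from 0.42 to 0.80 for Peg3, at 0.42 without animal IP_501, 0.75 without IP_502, 0.73 without IP_504, 0.72 without IP_508 and 0.69 without IP_511. It ran from -0.19 to 0.40 for Maged1, -0.08 to 0.28 for Maged2 and -0.13 to 0.29 for Ndn, and with the median of the markers it was 0.00 for Maged1 and -0.01 for Maged2. The filter on low values lowers list counts by leaving out genes, as in the Notch pathway, where 6 in EYFP and 5 in hTyr were then lower. Magel2, at 79 to 168 reads per library, is the member most limited by depth.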
